A study of Arabidopsis thaliana with 12 samples.

Results

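Seeds of the Arabidopsis thaliana mutant odr1-2 were compared with seeds of the wild type Col-0 after both had been placed in 300 mM mannitol, a sugar alcohol that withholds water and so acts as an osmotic stress. The comparison took in 6 of the 12 RNA sequencing libraries of the study, 3 of odr1-2 in mannitol and 3 of Col-0 in mannitol, chosen by the genotype and treatment in their labels. The other 6 libraries, 3 of odr1-2 in water and 3 of Col-0 in water, were part of the same fit. They entered its filter on low counts, its scaling and its estimate of the spread. Below they also show where the genotypes differed by another amount without the stress. All groups shared the same history. They were after-ripened seeds, dry-stored so that dormancy declines, kept for 2 days at 4°C and then for 12 h in mannitol or in water, from plants grown at 22°C. The mutant is represented by the single allele odr1-2, and the 3 libraries of a group are described as biological replicates. ODR1 carries no symbol in the annotation used, so its own mRNA was left out.

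Whether a seed germinates depends on the balance of 2 hormones. Abscisic acid (ABA) is made from carotenoids, keeps seeds dormant, and acts through PYR/PYL receptors, which block clade A PP2C phosphatases and so release SnRK2 kinases and the bZIP factors they switch on. Gibberellin (GA) removes the DELLA repressors and promotes cell wall loosening and growth. ODR1 is known in Arabidopsis as a negative regulator of seed dormancy that lowers ABA synthesis in developing seeds by opposing the transcription factor bHLH57. During maturation, B3 factors such as ABI3 and FUS3 build up storage proteins, oil bodies and the late embryogenesis abundant (LEA) proteins that protect dry cells, and this programme is normally wound down when the seed germinates.

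The 6 mannitol libraries held 11254652, 11376345 and 11593318 counts for odr1-2, and 10433576, 11519823 and 11573950 counts for Col-0. Of 36795 loci, 18413 passed the filter on low counts and were tested with edgeR's quasi-likelihood test. Levels are counts per 1000000 counts of the library (CPM), differences are log2 fold changes (odr1-2 over Col-0) with the standard error of the fit, and each group has n = 3. Higher and lower below mean an adjusted p under 0.05. Principal component 1 of the 6 libraries carried 61.9% of their variance, with odr1-2 between -37.4 and -37.1 and Col-0 between 37.1 and 37.6. Col-0 mannitol replicate 2 stood somewhat apart. Its chi-square per degree of freedom was 5.61 against replicate 1 and 4.39 against replicate 3, while the odr1-2 replicates gave 2.40 to 2.49 between themselves. Without that library, 3556 genes were higher and 3387 lower, against the 3779 and 3603 given next. Whole seeds were extracted, so more cells of a type and more RNA per cell cannot be told apart.

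In mannitol, 3779 genes were higher in odr1-2 than in Col-0 (20.5% of those tested) and 3603 were lower (19.6%), together 40.1%. Counts of list members below are to be read beside these shares. Most of these differences were small. A fold change of at least 2 was reached by 835 of the higher and 420 of the lower genes, of at least 4 by 164 and 80, and of at least 8 by 36 and 24. The share called grew with the level of a gene, from 9.17% of 709 genes under 1 CPM to 75.1% of 2196 genes over 100 CPM, where called genes had a median absolute log2 fold change of 0.33. The 6 libraries did not overlap between the genotypes for 47.6% of the genes. The balance of directions depended on how libraries were scaled. Of the calls, 51.2% were in the higher direction with TMM scaling, 42.0% with total count scaling, 40.7% with upper-quartile scaling and 40.6% in a fit on TPM (a transcript abundance adjusted for gene length), and these 3 moved the median of all genes by -0.05 to -0.06 on the log2 scale.

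**Figure D1:**
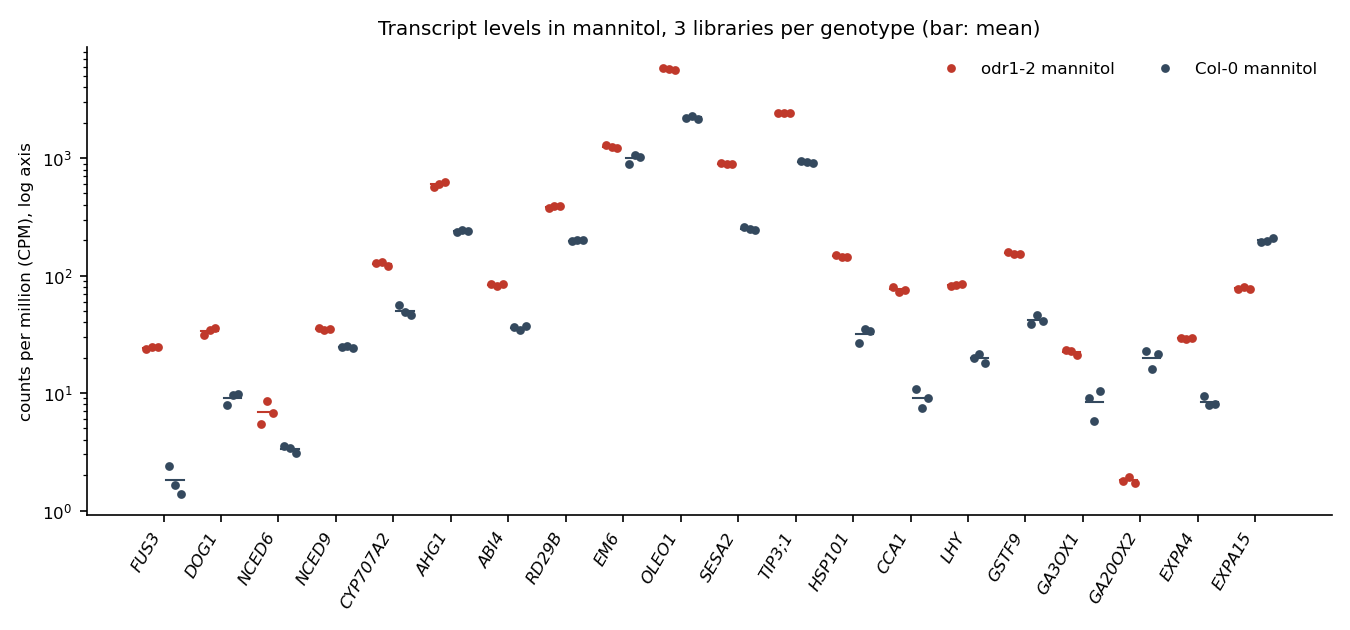
Level of 20 genes (CPM, log axis) in the 3 odr1-2 mannitol libraries (red, left of each pair) and the 3 Col-0 mannitol libraries (dark, right); points are libraries and bars their mean. FUS3, DOG1, CCA1 and HSP101 stood well above Col-0 in all 3 odr1-2 libraries, and GA20OX2 and EXPA15 stood below.

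The genes set furthest apart were loci that were nearly silent in one genotype. The uncharacterised gene AT2G11410 had 23.6, 23.7 and 24.8 CPM in odr1-2 mannitol and no count in the 3 Col-0 libraries, at least 269-fold higher against a floor of 3 counts over the Col-0 group. SADHU8-1, a member of a retroelement-derived family, had 21.6, 23.5 and 24.2 CPM in odr1-2 mannitol and again no count in Col-0 mannitol, at least 258-fold higher on the same floor. AT2G11405, whose locus number is next to that of AT2G11410, had 3.55, 4.57 and 2.85 CPM in odr1-2 mannitol against 0 in Col-0 mannitol, at least 40.8-fold higher. These 3 loci were read in every odr1-2 mannitol library and in no Col-0 mannitol library. The opposite pattern was seen for MRD1, at 1.42, 0.527 and 0.690 CPM in odr1-2 mannitol and 52.8, 50.0 and 53.1 CPM in Col-0 mannitol, a log2 fold change of -5.82 ± 0.17 (adjusted p = 3.66e-41). All 4 differed between the genotypes in water too.

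Among the other genes of at least 10 CPM with the largest rises were AT1G64795 (log2 fold change 6.45 ± 0.10), the metal transporter gene IRT3 (5.35 ± 0.30), AT5G55620 (5.18 ± 0.29), and the non-coding RNAs AT1G67105 (4.51 ± 0.21) and AT2G01422 (3.51 ± 0.22). FUS3 belonged to the same top 10, as did a peroxidase gene, AT1G71695 (3.26 ± 0.11), and a berberine bridge enzyme-like gene, AT1G26400 (3.22 ± 0.10). The largest falls after MRD1 were those of the gibberellin synthesis gene GA20OX2 (-3.40 ± 0.19), the amino acid exporter gene SIAR1 (-3.31 ± 0.17), the methyltransferase gene IGMT5 (-2.79 ± 0.11) and the karrikin-induced oxidoreductase gene KUOX1 (-2.62 ± 0.18). They were followed by AT1G17065 (-2.57 ± 0.19), the cysteine-rich peptide gene LCR69 (-2.40 ± 0.13), AT4G18690 (-2.38 ± 0.13), AT1G17830 (-2.20 ± 0.19) and the tubulin gene TUB5 (-2.18 ± 0.16). Whether reads were counted by strand is not given in the sources used here. AT1G64795 lies opposite ILA, MRD1 opposite HEI10, IGMT5 opposite AT1G76780 and AT1G17065 opposite CYP72C1, so reads of these pairs cannot be told apart.

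The first pathway to consider is the one that makes ABA. Of 9 tested ABA synthesis genes 6 were higher in odr1-2 mannitol and 1, ABA4, was lower, with a median log2 fold change of 0.64 against -0.0012 over all genes tested. NCED genes encode the 9-cis-epoxycarotenoid dioxygenases that cut the carotenoid precursor, the step that limits ABA synthesis, and the 4 called were all higher. NCED6 had 5.42, 8.53 and 6.81 CPM in odr1-2 mannitol and 3.55, 3.39 and 3.11 CPM in Col-0 mannitol (log2 fold change 1.10 ± 0.21, adjusted p = 1.28e-05). NCED9 had 35.9, 34.2 and 35.1 CPM in odr1-2 mannitol and 24.5, 25.0 and 24.2 CPM in Col-0 mannitol (0.57 ± 0.10, adjusted p = 2.68e-06). Neither gene's groups overlapped. NCED3, the member best known from drought-stressed leaves, had 5.51, 5.27 and 5.43 CPM in odr1-2 mannitol and 0.767, 1.22 and 0.691 CPM in Col-0 mannitol (2.64 ± 0.31, adjusted p = 3.99e-11). NCED5 was higher by 1.75 ± 0.26 and the zeaxanthin epoxidase gene ABA1 by 1.08 ± 0.06, and AAO3, which encodes the last enzyme, by 0.38. The pathway's counterpart was higher as well. CYP707A2, the main ABA-inactivating hydroxylase gene of imbibed seeds, had 127, 131 and 120 CPM in odr1-2 mannitol and 55.7, 49.4 and 46.1 CPM in Col-0 mannitol (1.38 ± 0.07, adjusted p = 6.07e-28). It was the only one called of the 3 ABA catabolism genes tested.

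In the ABA signal chain the components did not all move one way. Of 11 tested receptor genes 2 were higher and 4 lower. PYR1 had 65.6, 62.0 and 67.7 CPM in odr1-2 mannitol and 90.8, 107 and 97.7 CPM in Col-0 mannitol (log2 fold change -0.54 ± 0.06), and PYL4 was lower by a log2 fold change of -0.93 ± 0.10, while PYL8 was higher by 0.83 ± 0.11. Of the 9 clade A PP2C genes, which encode the phosphatases that hold the pathway off, 6 were higher and none lower (median 0.53). AHG1, a seed-specific member that binds DOG1, had 573, 601 and 622 CPM in odr1-2 mannitol and 237, 244 and 238 CPM in Col-0 mannitol (1.37 ± 0.05, adjusted p = 1.39e-35). HAI3 was higher by 1.10 ± 0.05, ABI2 by 1.06 ± 0.21 and AHG3 by 0.53 ± 0.05. Of the 3 kinases SNRK2.6 (1.20 ± 0.17) and SNRK2.3 (0.76 ± 0.06) were higher, and SNRK2.2 had a log2 fold change of 0.13 that was not called.

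Of the 13 ABA transcription factor and AFP genes 6 were higher (46.2%, against 20.5% of all genes) and none lower. ABI4, an AP2-type factor of ABA and sugar responses, had 84.2, 81.7 and 84.0 CPM in odr1-2 mannitol and 36.5, 34.7 and 37.2 CPM in Col-0 mannitol (1.26 ± 0.07, adjusted p = 4.37e-26). BZIP67 (2.41 ± 0.51), ABF4 (1.04 ± 0.09), EEL (0.88 ± 0.09) and AFP3 (0.82) were also higher. ABI5, the bZIP factor that arrests seedling growth under ABA, had 171, 152 and 149 CPM in odr1-2 mannitol and 142, 151 and 145 CPM in Col-0 mannitol. Its groups overlapped, and its log2 fold change of 0.16 ± 0.06 (adjusted p = 0.015) lost its call with total count scaling (adjusted p = 0.116) and without odr1-2 mannitol replicate 1 (0.182) or Col-0 mannitol replicate 1 (0.0744), among other settings. SNRK2.3 and ABF4 each overlap an expressed gene on the other strand, and EEL one on its own strand.

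FUS3, the B3 factor that maintains the embryo programme in maturing seeds, was the regulator set furthest apart. It had 23.5, 24.6 and 24.7 CPM in odr1-2 mannitol and 2.40, 1.65 and 1.38 CPM in Col-0 mannitol, 14.0-fold higher (log2 fold change 3.80 ± 0.18, adjusted p = 1.66e-29). AGL15 (1.40 ± 0.20) and HSFA9, a heat shock factor of seed maturation (1.08 ± 0.17), were also higher, and VAL1, a repressor of the embryo programme, was lower (-0.30 ± 0.07). Of the 9 tested embryo regulators 3 were thus higher (33.3%) and 1 lower (11.1%), against 20.5% and 19.6% of all genes. The remaining 5 were not called. With total count scaling 2 were lower, and with upper-quartile scaling 3. ABI3, the B3 factor that works with FUS3, averaged 623 ± 15.9 CPM in odr1-2 mannitol and 675 ± 80.1 CPM in Col-0 mannitol (-0.06). LEC1 and LEC2 were not tested. LEC2 averaged 0.413 ± 0.361 CPM in odr1-2 mannitol and had no count in Col-0 mannitol.

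Dormancy regulators were mixed, with 9 of 20 higher and 6 lower. DOG1, whose protein sets the depth of dormancy, had 31.5, 34.5 and 36.0 CPM in odr1-2 mannitol and 7.86, 9.72 and 9.85 CPM in Col-0 mannitol (log2 fold change 1.94 ± 0.13, adjusted p = 6.75e-21). Its relatives, annotated as delay of germination proteins, differed in direction. AT4G18690 had 7.73, 7.47 and 9.57 CPM in odr1-2 mannitol and 42.1, 50.9 and 41.2 CPM in Col-0 mannitol, AT4G18660 was lower with -1.28 ± 0.13 and AT4G18680 with -0.94 ± 0.10, while AT4G18650 was higher by 0.22. MFT, which acts between ABA and GA signalling, averaged 181 ± 8.11 CPM in odr1-2 mannitol and 101 ± 3.86 CPM in Col-0 mannitol (0.89 ± 0.06). SOM, a light-regulated repressor of germination, was lower (-0.23 ± 0.04). The bHLH gene AT4G01460 is annotated without a symbol and was taken here as the gene of bHLH57. It had 11.6, 10.5 and 11.2 CPM in odr1-2 mannitol and 7.86, 11.3 and 5.62 CPM in Col-0 mannitol. Its groups overlapped, and the log2 fold change of 0.48 ± 0.17 (adjusted p = 0.0218) was lost without Col-0 mannitol replicate 3 (0.26, adjusted p = 0.266), without Col-0 mannitol replicate 1 (adjusted p = 0.0679) and without odr1-2 mannitol replicate 1 (0.0629) or 3 (0.052).

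The products of seed maturation followed, and they were nearly all higher. All 10 tested oil body genes were higher in odr1-2 mannitol, with a median log2 fold change of 1.22. OLEO1, which encodes the main oleosin that coats oil bodies, had 5820, 5690 and 5660 CPM in odr1-2 mannitol and 2210, 2280 and 2170 CPM in Col-0 mannitol (1.42 ± 0.04, adjusted p = 4.3e-45). OLEO2 (1.36 ± 0.04), the caleosin gene CLO1 (1.47 ± 0.05) and OBAP1A (1.52 ± 0.05) lay close to it. Of 13 seed storage protein genes 11 were higher and 1, CRU2, was lower (-0.29 ± 0.04), with a median of 0.68. SESA2, a 2S albumin gene, had 912, 884 and 883 CPM in odr1-2 mannitol and 257, 249 and 245 CPM in Col-0 mannitol (1.89 ± 0.04, adjusted p = 5.91e-47). SESA3 was higher by 1.21 ± 0.04. CRA1, the most abundant cruciferin gene, had 19700, 19300 and 19100 CPM in odr1-2 mannitol and 13000, 11900 and 12900 CPM in Col-0 mannitol (0.68 ± 0.03). How reads that fit several genes were counted is not given in the sources used here, which bears on the closely related SESA genes and on the HSD1 pair of the oil body list.

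LEA proteins, which are hydrophilic and protect cells as they dry, were represented by 26 tested genes, of which 18 were higher and 1 lower (median 0.43). AT4G36600 had 225, 230 and 239 CPM in odr1-2 mannitol and 67.0, 66.4 and 64.9 CPM in Col-0 mannitol (1.86 ± 0.06, adjusted p = 3.13e-39). LEA7 had 1490, 1490 and 1540 CPM in odr1-2 mannitol and 635, 657 and 654 CPM in Col-0 mannitol (1.27 ± 0.04), and LEA14 was higher by 1.79 ± 0.07. The classical marker EM6 moved less, with 1290, 1240 and 1230 CPM in odr1-2 mannitol and 900, 1070 and 1020 CPM in Col-0 mannitol (0.38 ± 0.06, adjusted p = 7.92e-06). Its relative EM1, with 641 ± 47.3 CPM in odr1-2 mannitol and 647 ± 57.6 CPM in Col-0 mannitol, was not called. Among dehydrins 7 of 9 were higher and 1, HIRD11, was lower (median 0.96). RAB18, the best-known ABA-induced dehydrin gene, had 3160, 3290 and 3080 CPM in odr1-2 mannitol and 1180, 1450 and 1460 CPM in Col-0 mannitol (1.27 ± 0.10). AT4G39130 (1.56 ± 0.08) and COR47 (1.51 ± 0.08) rose as well.

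Other protective and dehydration genes were higher in part. All 3 tested genes of galactinol and raffinose synthesis, whose sugars protect dry seeds, were higher, namely GOLS2 (1.37 ± 0.10), RS4 (1.14 ± 0.08) and GOLS1 (1.09 ± 0.07). Of 10 osmotic and dehydration response genes 6 were higher and 2 lower. RD29B, a reporter of ABA response, had 373, 394 and 393 CPM in odr1-2 mannitol and 196, 199 and 200 CPM in Col-0 mannitol (1.02 ± 0.05, adjusted p = 1.9e-28). DREB2A (0.94 ± 0.06) and RD29A (0.97 ± 0.17) were higher, and RD22 was lower with 0.444, 1.05 and 0.604 CPM in odr1-2 mannitol and 3.07, 5.82 and 4.58 CPM in Col-0 mannitol (-2.61 ± 0.35). Of 7 seed antioxidant genes 4 were higher, led by APX1 (1.14 ± 0.10) and by PER1, a peroxiredoxin gene of dormant seeds (0.96 ± 0.04), and 1 was lower. The seed tonoplast aquaporin genes TIP3;1 (2420, 2400 and 2400 CPM in odr1-2 mannitol, 946, 927 and 912 CPM in Col-0 mannitol, 1.43 ± 0.04) and BETA-TIP (1.26 ± 0.04) led 4 of 9 aquaporin genes that were higher. PIP1;4 was the 1 lower. Of the aquaporin genes 44.4% were thus higher and 11.1% lower, against 20.5% and 19.6% of all genes. With total count scaling, with upper-quartile scaling and on TPM, 3 were higher and 2 lower. OBAP1A, GOLS1, TIP3;1 and BETA-TIP overlap expressed genes on the other strand.

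**Figure D2:**
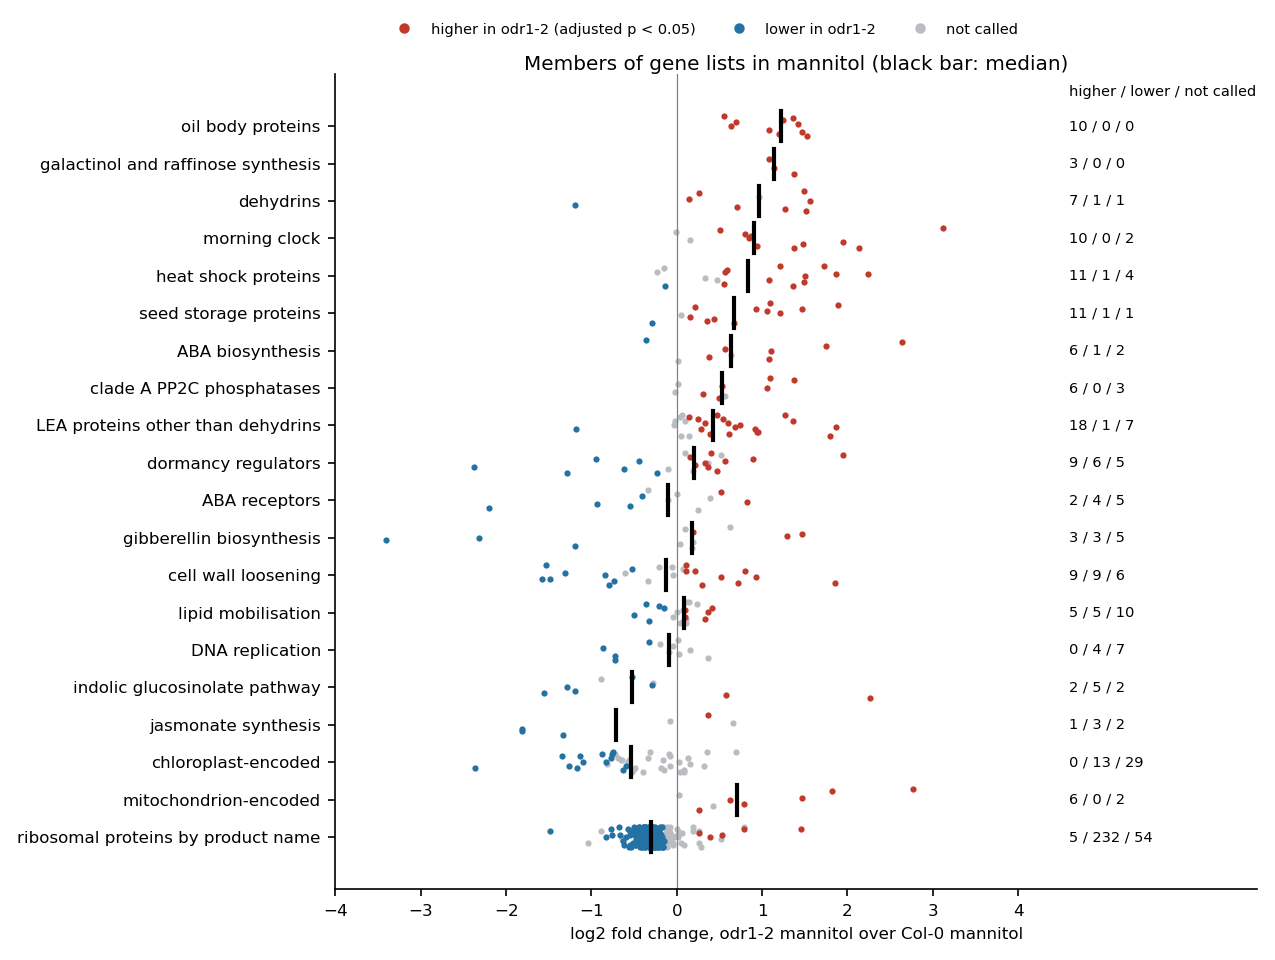
Log2 fold change (odr1-2 mannitol over Col-0 mannitol) of each tested member of 20 gene lists; red points are higher, blue points lower and grey points not called, and black bars are list medians. The 10 oil body genes all lie right of zero, and 232 of the 291 ribosomal protein genes are called on the left.

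These groups were a visible part of the libraries. Seed storage protein genes together held 3.79%, 3.69% and 3.70% of the counts in odr1-2 mannitol and 2.56%, 2.39% and 2.51% in Col-0 mannitol. The oil body genes held 1.14%, 1.14% and 1.13% in odr1-2 mannitol and 0.483%, 0.507% and 0.483% in Col-0 mannitol. LEA genes other than dehydrins held 2.06% in each of the 3 odr1-2 libraries and 1.42%, 1.59% and 1.53% in Col-0 mannitol. No library of one genotype reached the range of the other in these 3 groups. Per transcript length, the defensin-like gene LCR67 and CRA1 were the most abundant in odr1-2 mannitol, at mean levels of 16300 and 16000 TPM, against 16600 and 10500 TPM in Col-0 mannitol. ICL, OLEO1, EPR1, CRU3, SESA3, AT3G15670, RAB18 and AT1G04560 followed in odr1-2 at mean levels between 9730 and 4290 TPM. Of these 10, LCR67 alone was not called (log2 fold change 0.04, adjusted p = 0.491).

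**Figure D3:**
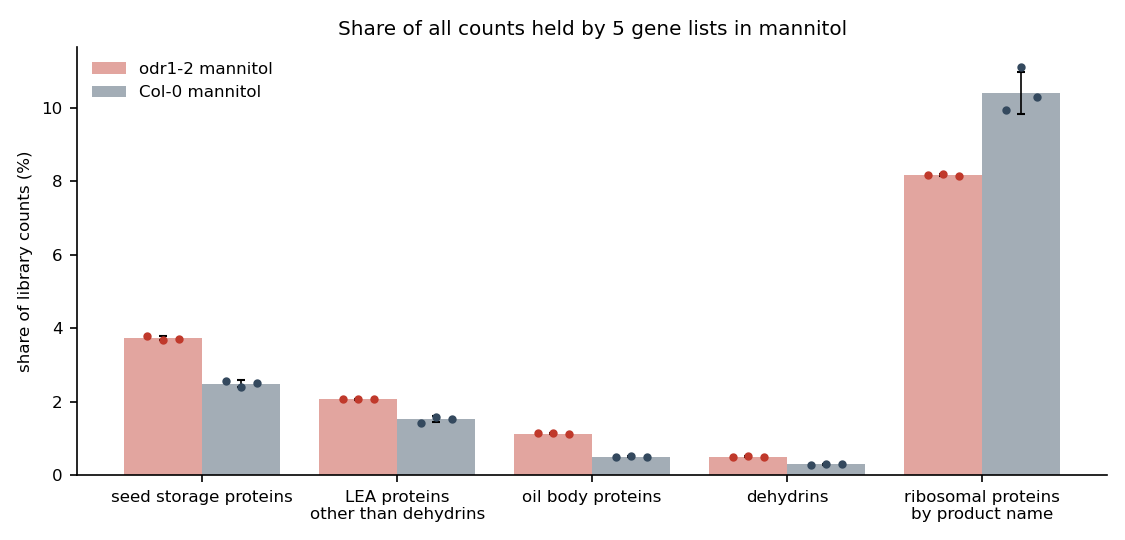
Share of all library counts (%) held by 5 gene groups in odr1-2 mannitol (red, left) and Col-0 mannitol (dark, right); bars are means, lines the SD over 3 libraries and points the libraries. Storage, LEA, oil body and dehydrin genes took a larger share in odr1-2, and ribosomal protein genes a smaller one.

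Of 11 tested gibberellin synthesis genes 3 were higher and 3 lower (27.3% each), near the 20.5% and 19.6% of all genes. The 3 lower ones were the GA 20-oxidases, which make the precursors of active GA. GA20OX2 had 1.78, 1.93 and 1.73 CPM in odr1-2 mannitol and 22.7, 16.1 and 21.3 CPM in Col-0 mannitol (-3.40 ± 0.19, adjusted p = 3.39e-25), GA20OX1 was lower by a log2 fold change of -2.31 ± 0.29 and GA20OX3 by one of -1.19. Among the GA 3-oxidases, which complete the active hormone, GA3OX1 had 23.2, 23.0 and 21.2 CPM in odr1-2 mannitol and 9.11, 5.82 and 10.4 CPM in Col-0 mannitol (1.47 ± 0.12, adjusted p = 1.2e-16), and GA3OX2 was higher by 1.29 ± 0.10, while GA3OX4 was not called (0.62, adjusted p = 0.228) and GA3OX3 had no count. GA2OX2, the deactivating enzyme gene that passed the filter, was higher by 0.72 ± 0.14. Of 8 receptor and DELLA genes 6 were higher, among them RGA (0.78 ± 0.05), RGL1 (0.95 ± 0.23) and RGL2 (0.31 ± 0.04), the DELLA repressor of germination. SLY1, which marks DELLA proteins for breakdown, was lower (-0.27), with an adjusted p of 0.0499. Of the GASA peptide genes GASA2 (1.58 ± 0.07) and GASA3 (1.10 ± 0.05) were higher.

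Of 24 cell wall loosening genes 9 were higher and 9 lower (37.5% each, against 20.5% and 19.6% of all genes). The split was 7 and 10 with total count or upper-quartile scaling, and 7 and 11 on TPM. Among the expansins, which loosen walls without cutting them, EXPA2, an endosperm expansin, had 950, 976 and 945 CPM in odr1-2 mannitol and 596, 597 and 613 CPM in Col-0 mannitol (0.72 ± 0.04, adjusted p = 8.12e-26). EXPA4 had 29.3, 29.0 and 29.5 CPM in odr1-2 mannitol and 9.39, 7.90 and 8.04 CPM in Col-0 mannitol (1.85 ± 0.12). EXPA15 went the other way, with 76.4, 79.9 and 77.6 CPM in odr1-2 mannitol and 193, 198 and 211 CPM in Col-0 mannitol (-1.31 ± 0.05). EXO, a growth-promoting gene (-1.57 ± 0.24), and XTH15, a xyloglucan-remodelling enzyme gene (-1.54 ± 0.19), were lower. Of the 11 tested DNA replication genes 4 were lower (36.4%, against 19.6% of all genes) and none higher. The 4 were led by the ribonucleotide reductase gene RNR1 with 170, 163 and 161 CPM in odr1-2 mannitol and 323, 299 and 314 CPM in Col-0 mannitol (-0.86 ± 0.05). The 6 MCM helicase genes were not called. Of 9 D-type cyclin genes 2 were higher (22.2%) and 1, CYCD3;3, was lower (-0.76 ± 0.13), and 1 was higher and 2 lower with total count scaling, with upper-quartile scaling and on TPM.

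Of 20 genes that turn stored oil into sugar, 5 were higher and 5 lower (25.0% each), near the 20.5% and 19.6% of all genes. With total count scaling, with upper-quartile scaling and on TPM, 3 were higher and 6 lower. The glyoxylate cycle gene ICL had 14000, 13900 and 14100 CPM in odr1-2 mannitol and 11300, 11400 and 11300 CPM in Col-0 mannitol (0.36 ± 0.03), and the beta-oxidation gene MFP2 averaged 1310 ± 8.62 CPM in odr1-2 mannitol and 1740 ± 41.6 CPM in Col-0 mannitol (-0.36 ± 0.04). PCK1, which opens gluconeogenesis, and MLS were not called (-0.04 and 0.07).

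Heat shock proteins, chaperones that hold or refold damaged proteins, were higher for 11 of 16 tested genes and lower for 1, with a median of 0.83. HSP101, which dissolves aggregates, had 151, 143 and 143 CPM in odr1-2 mannitol and 26.6, 35.2 and 33.5 CPM in Col-0 mannitol (2.25 ± 0.08, adjusted p = 1.4e-36). HSP70 had 879, 884 and 886 CPM in odr1-2 mannitol and 327, 314 and 327 CPM in Col-0 mannitol (1.51 ± 0.04). HSP90.1 (1.87 ± 0.08) and the heat shock factor gene HSFA2 (1.496 ± 0.09) were also higher. The constitutive HSC70-1 was the 1 lower (-0.13 ± 0.03).

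The circadian clock is built from dawn-phased MYB factors and evening genes that repress each other. Of 12 morning genes 10 were higher in odr1-2 mannitol and none lower (median 0.90). CCA1 had 80.6, 72.7 and 75.9 CPM in odr1-2 mannitol and 10.8, 7.47 and 9.07 CPM in Col-0 mannitol, 8.73-fold higher (3.13 ± 0.10, adjusted p = 3.89e-39). LHY, its close relative, had 80.9, 83.5 and 85.2 CPM in odr1-2 mannitol and 19.9, 21.3 and 18.0 CPM in Col-0 mannitol (2.13 ± 0.08), and PRR9 was higher by 1.94 ± 0.09 and LNK2 by 1.48 ± 0.07. The lowest mutant library stood more than the whole Col-0 range above the highest Col-0 library for CCA1 and LHY. Of 9 evening genes 2 were higher (22.2%) and 3 lower (33.3%), against 20.5% and 19.6% of all genes. ELF4, of the evening complex, had 13.8, 16.8 and 18.0 CPM in odr1-2 mannitol and 40.4, 40.2 and 42.0 CPM in Col-0 mannitol (-1.28 ± 0.10), and GI was higher by 0.59 ± 0.10.

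Defence and stress hormone genes moved less uniformly. Of 9 tested indolic glucosinolate genes, whose products deter herbivores, 5 were lower (55.6%) and 2 higher (22.2%), with a median of -0.53. The share higher was near the 20.5% of all genes. The enzyme gene CYP83B1 had 5.69, 7.56 and 8.45 CPM in odr1-2 mannitol and 22.6, 23.7 and 20.1 CPM in Col-0 mannitol (-1.56 ± 0.13), and SOT16 (-1.19 ± 0.09), CYP81F2 (-1.28 ± 0.18) and SUR1 (-0.53 ± 0.08) were lower as well. The 2 higher ones were regulators, MYB51 (2.27 ± 0.54, at 1.69 ± 0.535 CPM in odr1-2 mannitol and 0.355 ± 0.223 CPM in Col-0 mannitol) and MYB34 (0.57 ± 0.09). Of 6 jasmonate synthesis genes AOS (-1.81 ± 0.28), OPR3 (-1.81 ± 0.22) and AOC4 (-1.34 ± 0.18) were lower and JAR1, which conjugates the hormone, was higher (0.37 ± 0.08). The JAZ repressors had 1 higher and 1 lower of 9 (11.1% each, against 20.5% and 19.6% of all genes). ACS2 was the 1 called of 5 tested ethylene synthesis genes (20.0% higher, near the 20.5% of all genes). It was higher, with 30.2, 29.8 and 31.6 CPM in odr1-2 mannitol and 9.49, 6.94 and 7.08 CPM in Col-0 mannitol (2.02 ± 0.14).

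Genes of translation were mostly lower, and those of the 2 organelles differed in direction. Ribosomal protein genes were taken by their annotated product name, which also admits a few organelle-targeted ribosomal proteins and an elongation factor. Of 291 tested, 232 were lower and 5 higher, with a median of -0.30. The falls ran from a log2 fold change of -1.48 to one of -0.15, and 250 to 252 were lower with total count scaling, with upper-quartile scaling and on TPM. Together these genes held 8.17%, 8.19% and 8.14% of the counts in odr1-2 mannitol and 9.94%, 11.1% and 10.3% in Col-0 mannitol. The 5 higher were AT1G17080, AT1G68660, AT3G01170, RPL18AA and AT3G14595. They too were taken by name alone, and whether each encodes a part of the ribosome was not checked. Chloroplast-encoded genes were lower for 13 of 42 tested (31.0%, against 19.6% of all genes) and higher for none (median -0.54). They held 0.0155%, 0.0157% and 0.0168% of counts in odr1-2 mannitol and 0.0210%, 0.0239% and 0.0226% in Col-0 mannitol. Mitochondrion-encoded genes were higher for 6 of 8 and lower for none (median 0.71). Of the 6, ATMG00020 (0.26), ATMG01390 (0.63) and ATMG01380 (1.82) are genes of ribosomal RNA, not of mRNA. ATMG00020 and ATMG01390 held 4531 and 2488 counts over the 6 mannitol libraries, and no other of the 8 held more than 689. Libraries were made from poly-T-captured RNA, so organelle transcripts were read only as far as they were carried along. Of 16 nuclear photosynthesis genes 6 were higher (37.5%), led by PSBO1 (1.94 ± 0.16), and 2 lower (12.5%), against 20.5% and 19.6% of all genes. With total count or upper-quartile scaling 5 were higher and 3 lower, and on TPM 5 and 4.

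Chromatin genes were read from 2 lists, in which 20.5% higher and 19.6% lower is the share over all genes. Of 11 polycomb genes 1, VRN2, was higher (0.47 ± 0.12) and 2 were lower, CLF (-0.93 ± 0.15) and MSI1 (-0.23 ± 0.06), and 5 were lower with total count or upper-quartile scaling. Of 8 DNA methylation and demethylation genes ROS1, a demethylase gene, was higher (0.56 ± 0.14) and DME lower (-0.26 ± 0.10), and 3 were lower with total count or upper-quartile scaling. The groups of DME overlapped, and its call was lost without Col-0 mannitol replicate 1 (adjusted p = 0.088) or 3 (0.395) and without odr1-2 mannitol replicate 1 (0.09) or 3 (0.184), among other settings.

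Markers of the seed's tissues were read to see what the libraries held. The 10 endosperm markers summed to 13400 to 14500 CPM in odr1-2 mannitol and 4240 to 7010 CPM in Col-0 mannitol, with ZOU and AT3G12910 at 0 in both genotypes and NAC025 at 0 in odr1-2 mannitol. Nearly all of that was EPR1, a cell wall protein gene of the endosperm that weakens before germination, with 11900, 11800 and 13000 CPM in odr1-2 mannitol and 5760, 3210 and 5970 CPM in Col-0 mannitol. Its log2 fold change of 1.35 ± 0.21 became 1.12 without Col-0 mannitol replicate 2 (adjusted p = 1.11e-05). Of 7 tested endosperm markers EXPA2, MAN7 (1.04 ± 0.05) and EPR1 were higher, ICE1 was lower (-0.28 ± 0.05), and MAN2, MAN5 and MAN6 were not called. The 8 embryo markers summed to 25700 to 26500 CPM in odr1-2 mannitol and 14900 to 16200 CPM in Col-0 mannitol, and 7 seed coat markers to 15.1 to 17.6 CPM in odr1-2 mannitol and 17.0 to 20.6 CPM in Col-0 mannitol, with TT10 at 0 in both genotypes and BAN at 0 in Col-0 mannitol. The embryo sum is made up mostly of CRA1 and OLEO1, which are maturation genes described above, so it is no separate measure of them. Of the embryo markers that are regulators, FUS3 was higher and ABI3 and L1L were not called. The endosperm sum was higher beside the maturation genes, and its part in those results was not tested.

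The same genotype comparison in water shares no library with the one in mannitol, though both come from 1 fit with a shared estimate of the spread. There, 3757 genes were higher (20.4%) and 3425 lower (18.6%) in odr1-2, together 39.0% of those tested. Of the 7382 genes called in mannitol, 5152 were called in the same direction in water (69.8% of the mannitol calls and 71.7% of the water calls), and 47 in the opposite direction. Across genes the 2 log2 fold changes had Pearson's r = 0.776 and Spearman's rho = 0.737, over 18413 genes that share their libraries and are not independent. Another 2183 genes were called in mannitol alone, and for 139 of these a direct test found the difference in mannitol unlike that in water. That test, an interaction term, called 690 genes in all (3.75%), 199 with a larger and 491 with a smaller log2 fold change in mannitol than in water. Without Col-0 mannitol replicate 2 it called 272 and 646.

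Of the 491 genes with the smaller value in mannitol, 229 were higher in odr1-2 in both media, by a smaller ratio in mannitol. The test compares ratios, and a difference in CPM need not be smaller, as the levels of OLEO1 below show. Seed maturation genes were prominent among them. The interaction was negative for 9 of 10 oil body genes, 9 of 13 storage protein genes and 18 of 26 LEA genes, against 2.67% of all genes. It was positive for 1 storage protein gene, SESA4 (0.32, adjusted p = 0.000458). The median log2 fold change of the oil body genes was 1.22 in mannitol and 1.82 in water, and that of the LEA genes 0.43 in mannitol and 0.88 in water. OLEO1 averaged 5720 CPM in odr1-2 mannitol and 2220 CPM in Col-0 mannitol, against 3110 CPM in odr1-2 water and 820 CPM in Col-0 water. RD29B likewise averaged 387 CPM in odr1-2 mannitol and 198 CPM in Col-0 mannitol, against 262 CPM in odr1-2 water and 63.8 CPM in Col-0 water. FUS3 had a log2 fold change of 3.80 in mannitol and 4.04 in water, and its interaction was not called (adjusted p = 0.818).

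A smaller set had the larger log2 fold change in mannitol, among them 4 of 12 morning clock genes, 4 of 16 heat shock genes and 4 of 9 indolic glucosinolate genes, against 1.08% of all genes. CCA1 had a log2 fold change of 3.13 in mannitol and 2.15 in water (interaction 0.98, adjusted p = 3.25e-07). ABI4 had 1.26 in mannitol and 0.51 in water (0.75, adjusted p = 1.85e-09), and GA3OX1 had 1.47 in mannitol and 0.74 in water (0.73, adjusted p = 0.000613). For the glucosinolate genes the larger value meant a smaller deficit, as in CYP83B1, with -1.56 in mannitol and -2.45 in water. GSTF9, a glutathione transferase gene, averaged 155 CPM in odr1-2 mannitol and 42.2 CPM in Col-0 mannitol, against 74.6 CPM in odr1-2 water and 50.7 CPM in Col-0 water (interaction 1.35, adjusted p = 2.11e-17). Of the growth genes EXO and XTH15 were lower in odr1-2 in mannitol and not called in water (interactions -1.34 and -1.49). A few genes changed sides, such as CYP78A6, a cytochrome P450 gene of seed growth, with -0.72 in mannitol and 0.76 in water (interaction -1.47, adjusted p = 0.000512).

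**Figure D4:**
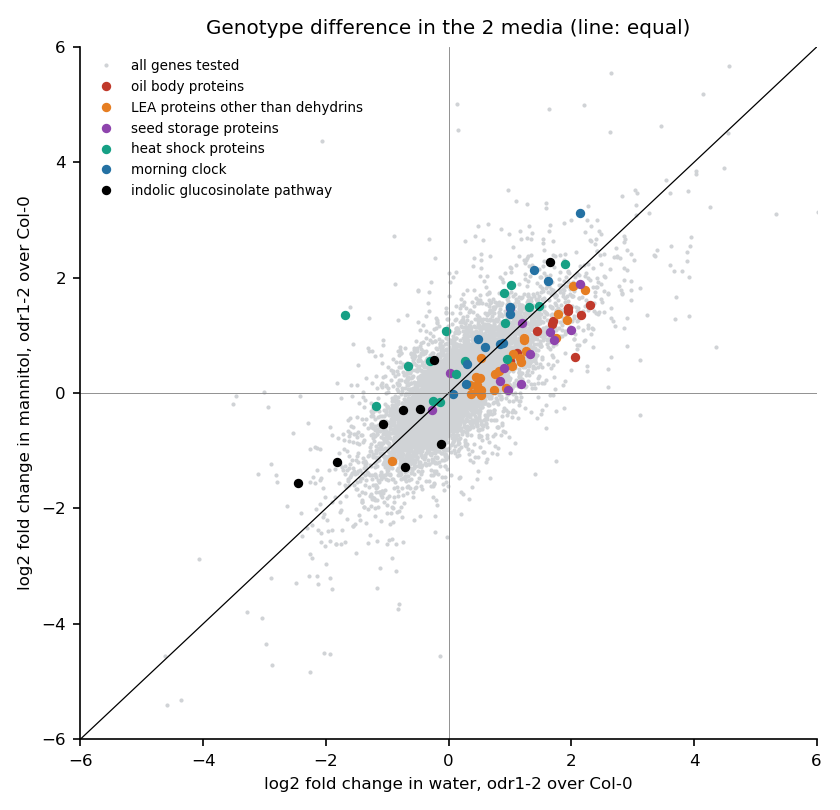
Log2 fold change of odr1-2 over Col-0 in mannitol (vertical) against that in water (horizontal) for the genes tested, with 6 lists in colour and a line of equality; 9 genes lie beyond the limit of 6 on an axis. Oil body, LEA and storage protein genes lie mostly below the line, and morning clock genes on or above it.

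The genes that moved together were also compared by sequence motifs upstream of their start, a property the comparison did not use. The 250 bases before the annotated gene start were read for 16987 tested protein-coding genes and searched on both strands for 3 motifs. ACGTG is the core of the ABA-responsive element bound by ABI5 and ABF factors, CATGCA the RY motif bound by B3 factors such as FUS3, and AAACCCTA the telobox of many translation genes. ACGTG was found in 30.8% of windows of genes higher in odr1-2 mannitol, 20.3% of those of lower genes, 21.7% of those not called and 23.3% of all tested. CATGCA was found in 9.34% of the higher, 6.39% of the lower, 6.81% of those not called and 7.25% of all tested, and in 14.4% of the 742 windows of genes at least 2-fold higher and 9.49% of the 369 of genes at least 2-fold lower. The telobox was found in 2.14% of the higher, 6.42% of the lower, 3.68% of those not called and 3.91% of all tested. Among genes at least 2-fold apart it was found in 1.89% of the higher and 3.79% of the lower, the second near the share of all tested. Among the lists, all 11 oil body windows and 11 of 13 storage protein windows held CATGCA, 23 of 27 LEA windows and 9 of 12 morning clock windows held ACGTG, none of the 12 clock windows held CATGCA, and 54 of 321 ribosomal protein windows held the telobox. These are matches of letters in a window and were not tested.

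**Figure D5:**
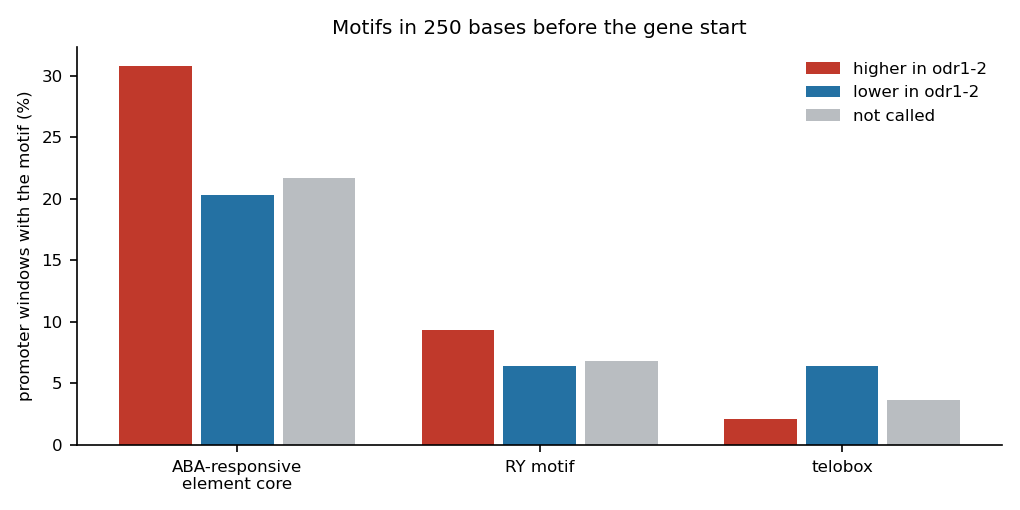
Share of promoter windows (%) holding each of 3 motifs among genes higher (red), lower (blue) and not called (grey) in odr1-2 mannitol against Col-0 mannitol. The first and second motifs were most frequent upstream of higher genes, at 30.8% and 9.34%, and the telobox upstream of lower genes, at 6.42%.

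To show what these matches look like, the windows of 5 genes described above or called with them follow, each 250 bases ending just before the gene start, 5′ to 3′ on the gene's strand, from RefSeq's TAIR10.1 assembly. They were chosen after their values and motifs were seen, as the abundant oleosin gene, a storage and a LEA gene rich in one motif, a clock gene and a lower ribosomal protein gene (AT2G36160, 465 ± 21.4 CPM in odr1-2 mannitol and 628 ± 32.3 CPM in Col-0 mannitol). Capitals mark the motifs on either strand. CACGTG holds ACGTG on both strands and counts as 2, as does CATGCATG for the RY motif.
OLEO1 (chr4:12900180-12900429, + strand; 5 ACGTG and 3 CATGCA): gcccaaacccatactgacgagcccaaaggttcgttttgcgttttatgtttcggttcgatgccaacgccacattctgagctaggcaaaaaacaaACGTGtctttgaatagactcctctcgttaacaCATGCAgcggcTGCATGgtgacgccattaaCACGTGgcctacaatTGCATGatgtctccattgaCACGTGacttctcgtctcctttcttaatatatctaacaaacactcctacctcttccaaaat
SESA3 (chr4:13611546-13611795, + strand; 2 ACGTG and 7 CATGCA): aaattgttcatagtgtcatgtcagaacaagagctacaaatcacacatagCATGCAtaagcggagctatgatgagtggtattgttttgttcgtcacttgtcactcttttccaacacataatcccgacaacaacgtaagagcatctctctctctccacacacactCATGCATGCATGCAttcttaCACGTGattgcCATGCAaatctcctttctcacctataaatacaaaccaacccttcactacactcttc
AT4G36600 (chr4:17263314-17263563, + strand; 7 ACGTG): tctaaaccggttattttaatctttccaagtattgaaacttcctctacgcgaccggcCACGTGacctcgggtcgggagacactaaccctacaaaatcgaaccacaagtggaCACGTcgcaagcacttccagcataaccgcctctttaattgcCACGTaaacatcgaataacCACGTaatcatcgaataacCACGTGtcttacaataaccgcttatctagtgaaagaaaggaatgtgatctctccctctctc
CCA1 (chr2:19245341-19245590, + strand; 2 ACGTG): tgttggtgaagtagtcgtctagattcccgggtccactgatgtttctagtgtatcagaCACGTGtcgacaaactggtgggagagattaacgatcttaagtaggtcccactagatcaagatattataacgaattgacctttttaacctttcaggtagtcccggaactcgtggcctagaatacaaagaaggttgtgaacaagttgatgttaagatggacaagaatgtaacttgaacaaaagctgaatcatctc
AT2G36160 (chr2:15169568-15169817, + strand; 1 ACGTG and 2 AAACCCTA): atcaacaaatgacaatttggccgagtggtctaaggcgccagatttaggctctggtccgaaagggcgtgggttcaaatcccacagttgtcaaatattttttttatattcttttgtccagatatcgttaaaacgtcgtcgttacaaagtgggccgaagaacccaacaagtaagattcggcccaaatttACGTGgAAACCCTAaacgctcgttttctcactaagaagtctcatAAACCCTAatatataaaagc
The seed genes OLEO1 and SESA3 carry the 2 kinds of motif side by side, the LEA gene and CCA1 carry ACGTG without the RY motif, and the ribosomal protein gene carries the telobox.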

How the data were processed

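RNA-seq libraries of whole seeds were compared at the level of annotated genes. Read counts per gene were deposited for each library, with TPM values computed from them. Per the submitters' processing notes, fastp 0.23.1, HISAT2 2.2.1 and HTSeq 2.0.5 were used with TAIR10, with their roles not given. TPM is relative to gene length and library size in the deposited files. Loci were named from RefSeq's TAIR10.1 annotation, which held 36632 of 36795 (163 did not match).

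Genes were kept by edgeR's filterByExpr (minimum count 10, minimum total 15), scaled by TMM and fitted with the quasi-likelihood test (edgeR 4.0.16, R 4.3.3) over all 12 libraries with 4 group means. P-values were adjusted by Benjamini-Hochberg over 18413 genes. They rest on a spread estimated for each gene within all 4 groups together and drawn toward that of other genes. Each group held 3 libraries described as biological replicates. The standard errors of the fit take in that estimated spread as well, while the floors cover counting error only. CPM is not length-adjusted, so levels of different genes were compared in TPM. Settings tried included DESeq2 1.42.0 and limma 3.58.1 (voom, and trend on log2(TPM + 1)).

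The genes and 39 lists were chosen with earlier results of these data known. Named genes were 11 fixed ones, the 10 largest changes each way (at least 10 CPM, no overlap), up to 4 called members per list (at least 1 CPM), the 5 largest interactions each way, genes read in 1 genotype only, and the 10 highest TPM. Other list members named with a value were chosen after their values were seen.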

Additional observations from a re-analysis of the deposited data

Results flagged for a closer look

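For 59 of the named genes the difference between odr1-2 and Col-0 in mannitol differed from that in water by the interaction term of the edgeR quasi-likelihood test. Each value below is the log2 fold change in mannitol minus the log2 fold change in water, and 16 were positive and 43 negative. No cause of these differences was tested.

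In the ABA pathway and its regulators, the value was -0.73 for NCED9, -0.53 for PYL4, 0.65 for PYL8, -0.44 for HAI3, 0.75 for ABI4 and -1.04 for DOG1. For DOG1 that is a log2 fold change of 1.94 in mannitol and 2.98 in water. Among gibberellin genes it was 0.73 for GA3OX1, 0.74 for GA3OX2, -1.504 for GA20OX2, 0.30 for RGA, -0.93 for GASA2 and -0.84 for GASA3. GA20OX2 was lower in odr1-2 by a larger amount in mannitol (-3.40) than in water (-1.90).

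The named seed protection and storage genes listed here had negative values, while SESA4, chosen after its value was seen, had a positive one (0.32). The negative values were -0.44 for EM6, -0.67 for LEA7, -0.43 for LEA14, -0.42 for AT3G02480, -0.32 for the LEA gene AT3G15670, -0.81 for the dehydrin gene AT4G39130 and -1.05 for RD29B. They were -0.26 for SESA2, -0.65 for CRA1, -0.63 for CRU3, -0.90 for the cupin gene AT2G28490, -0.52 for OLEO1, -0.79 for OLEO2, -0.49 for CLO1 and -0.77 for OBAP1A. They were -0.82 for GOLS2, -1.21 for RS4, -0.75 for PER1, -0.94 for TIP3;1, -0.85 for BETA-TIP and -0.71 for AT1G04560, an AWPM-19-like gene.

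Among growth, wall and metabolism genes the value was -0.32 for EXPA2, -0.51 for MAN7, -1.34 for EXO, -1.49 for XTH15, -0.23 for MFP2, -0.37 for RNR1 and -0.32 for AT3G14595. It was 0.84 for HSP90.1, 0.98 for CCA1, 0.73 for LHY, 0.48 for LNK2, 0.89 for CYP83B1 and 0.64 for SOT16.

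The largest positive values belonged to FTM1, a desaturase family gene (2.00), GSTF9 (1.35), the chloroplast gene ATCG00340 (1.33), YLS5 (1.32) and AT4G30470 (1.315). FTM1 had a log2 fold change of 0.18 in mannitol, not called, and -1.82 in water. Negative values were also those of AT2G29310 (-2.42), CYP78A6 (-1.47) and the lipase gene AT5G45670 (-1.45). Genes of the largest genotype differences gave -1.04 for AT1G26400, -1.18 for SIAR1, -0.53 for IGMT5 and -1.41 for AT1G17065, and the abundant LCR67 gave -0.34.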

How the results depend on the processing

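The 25 other settings kept the counts of genes higher and lower in odr1-2 mannitol within 1.5 times the 3779 and 3603 given. Leaving out 1 library at a time gave 3427 to 3800 higher and 3128 to 3638 lower in mannitol, 152 to 272 and 395 to 646 for the interaction, and 3262 to 3935 and 2896 to 3628 in water. The 199 genes with a larger log2 fold change in mannitol became 113 on log2(TPM + 1) and 120 at an adjusted p under 0.01. The 6 mannitol libraries fitted alone gave 3566 higher and 3277 lower, and DESeq2 gave 3551 and 3311. Same-numbered libraries of different groups had correlations between -0.0264 and 0.0298 after removal of group means. These values over all genes gave no sign of pairing by number, but cannot exclude a pairing that touches only some genes. With a replicate block, mannitol gave 3825 higher and 3644 lower, water 3786 and 3479, and the interaction 228 and 529.

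Over 168 named genes, 3183 gene and setting pairs gave 3102 with the same call, 73 that lost it, 1 that gained it and 7 of opposite sign. The 7 came from 2 uncalled genes, YLS5 and LCR67. YLS5 was at 0.12 without odr1-2 mannitol replicate 1, 0.0034 without Col-0 mannitol replicate 2 and 0.0197 without Col-0 mannitol replicate 3, and ranged from -0.23 to 0.12 over the 6 mannitol libraries left out in turn. LCR67 was at -0.0141 with total count scaling, -0.0231 with upper-quartile scaling, -0.0218 on TPM and -0.0198 without Col-0 mannitol replicate 1, and ranged from -0.0198 to 0.11 over the same 6. Of 165 called named genes, 14 lost their call in some setting other than the stricter p, and the cause was not tested. Of 1482 list counts, 83 moved by over 1.5 times. Of genes under 1 CPM, where a library holds few counts of each, 9.17% were called.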

Other observations

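Calls were spread over the genome, with 39.3% to 40.9% of the tested genes of each of the 5 nuclear chromosomes differing between odr1-2 and Col-0 in mannitol. Over all genes 20.5% were higher and 19.6% lower, together 40.1%. Among kinds of transcript in the RefSeq annotation, 35 of 82 tested genes of the class ncRNA were higher in odr1-2 mannitol and 5 lower (together 48.8%). Of 920 lncRNA genes 161 were higher and 97 lower (28.0%). For snoRNA genes, whose products guide the modification of ribosomal RNA, 2 of 82 were higher and 18 lower (24.4%). The lncRNA and snoRNA classes were thus called less often than all genes. Of 132 pseudogenes 35 were higher and 13 lower (36.4%). For protein-coding genes 3512 of 16991 were higher and 3442 lower (40.9%). The RNA was captured by poly-T, and small RNAs without a poly-A tail were read only as far as they were carried along or overlap another transcript.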
